A study of Homo sapiens with 33 samples.

Results

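The endothelial marker genes were 10 genes, namely PECAM1, KDR, FLT1, TEK, TIE1, ERG, SOX17, ESAM, EMCN and EGFL7, taken by name from the deposited table of fragment counts, where they made up 10 of 58735 genes. Bulk RNA-seq covered 33 libraries in 11 groups of 3, from H9-FOXL2-DDdCas9VP192 cells, a human embryonic stem cell (hESC) line in which doxycycline (DOX) and trimethoprim (TMP) switch on a dCas9 activator directed at FOXL2. The line is 1 clone. Every group had first been taken through activin A, the GSK3 inhibitor CHIR99021, the BMP inhibitor dorsomorphin and BMP7 towards intermediate mesoderm and gonadal-like cells. The day 4 group was sampled before induction. From then on the non-induced cells (CTRL) were kept in intermediate mesoderm medium and the induced cells (IND) in the same medium with DOX and TMP, and both were sampled at day 6, 8, 10, 12 and 14. IND therefore differed from CTRL by both compounds as well as by FOXL2 activation, and these cannot be told apart here. The 3 replicates of a group were wells of 1 differentiation, so p-values measure the spread between wells.

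Endothelial cells line blood vessels and, in the embryo, arise from mesoderm under vascular endothelial growth factor (VEGF). KDR and FLT1 are receptors for VEGF, and TEK and TIE1 are the receptor tyrosine kinases of the angiopoietin pathway. PECAM1 and ESAM are adhesion molecules of the junctions between endothelial cells and EMCN is a sialomucin of their surface. ERG is an ETS factor and SOX17 a SOX factor that maintain endothelial identity, and EGFL7 is a secreted protein whose gene carries the microRNA gene MIR126 in an intron. Several of these genes are not particular to endothelium. KDR also marks early mesoderm, and SOX17 is a classic gene of definitive endoderm and of primordial germ cells.

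The libraries held between 23940837 and 51912815 counts, with a median of 41420455. CPM, the counts scaled to library size after trimmed mean of M-values (TMM) normalisation, serve to compare 1 gene between groups. The deposited FPKM values are fragments scaled to library size and gene length and serve to compare genes. A floor of 3 counts corresponded to between 0.0564 and 0.130 CPM, depending on the library, which covers counting error only. FOXL2, the activated gene, was at 147 to 577 CPM in the induced wells and no higher than 0.388 CPM elsewhere. CDH5 (VE-cadherin), the defining junction gene of endothelium, was detected in every library, at 2.88 to 38.1 CPM. Replicate 2 of day 10 IND stood apart, with a mean correlation of 0.928 with the other wells of its group against 0.961 to 0.995 for the remaining 32 libraries. Tests of IND against CTRL at day 10 are therefore also given without it for the members other than KDR and EGFL7. Counts, medians and shares at day 10 include it unless stated. None of the 10 genes shared exon bases with another annotated gene, which matters because the libraries did not keep strand. In bulk RNA, fewer cells of a type and less RNA per cell cannot be told apart.

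The 10 genes differed widely in level per length. Averaged over all libraries, EGFL7 was highest (23.6 FPKM), followed by SOX17 (14.6 FPKM) and KDR (10.5 FPKM). TEK, TIE1, FLT1 and ESAM lay between 1.70 and 2.08 FPKM, while PECAM1 (0.925), EMCN (0.376) and ERG (0.352) were on average below 1 FPKM. Only PECAM1 among the lowest 3 passed 1 FPKM in a group, reaching 2.26 FPKM at day 8 IND. The genes also differed in how far they ranged across the 11 groups. EGFL7 varied 1.56-fold and KDR 2.21-fold between their highest and lowest group mean in CPM, FLT1 3.36-fold, TEK 5.64-fold, SOX17 6.48-fold and PECAM1 15.0-fold. TIE1, ERG, ESAM and EMCN had 34 counts or fewer in each day 4 library and varied most. The highest mean was at day 8 IND for PECAM1, TEK, TIE1, ERG and ESAM, at day 10 IND for SOX17 and EMCN, at day 12 IND for EGFL7, at day 6 CTRL for KDR and at day 8 CTRL for FLT1. Without replicate 2 of day 10 IND, it moved to day 10 IND for PECAM1 and EGFL7 and to day 8 IND for SOX17. Groups next to each other in the order of means mostly overlapped. Of the 10 steps from the highest to the lowest group, libraries were apart at 0 for KDR, SOX17 and EGFL7, at 1 for PECAM1, TEK and ERG, and at 2 for FLT1, TIE1, ESAM and EMCN.

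**Figure D1:**
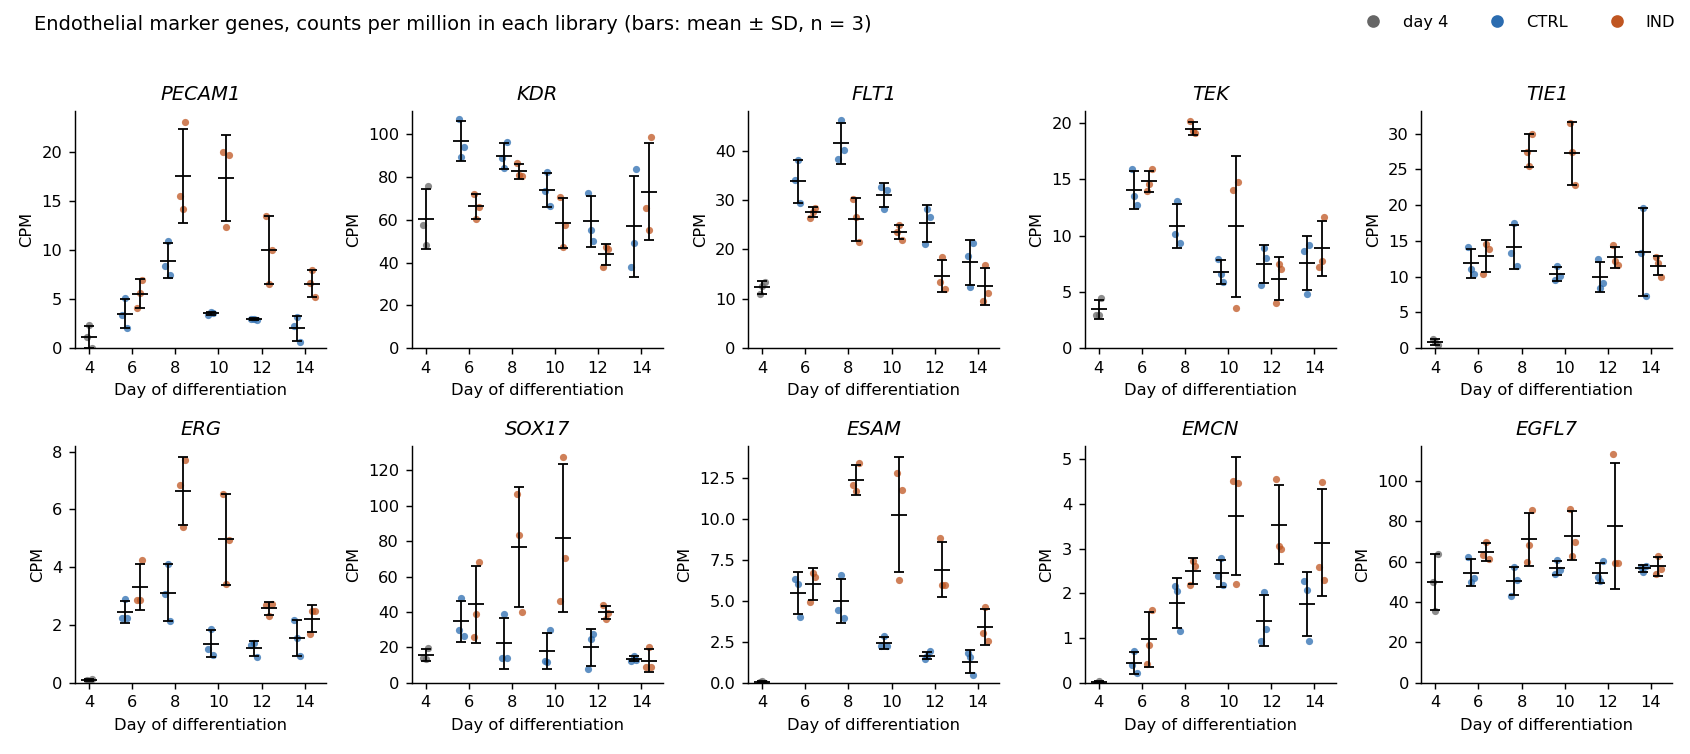
CPM of each endothelial marker gene (linear axes from 0) against day of differentiation; points are single libraries, grey for day 4, blue for CTRL and orange for IND, and black bars give the mean ± SD of 3. At day 8 the IND points of PECAM1, TEK, TIE1, ERG and ESAM lie above all CTRL points, while those of FLT1 lie below.

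The first question was how the genes changed as differentiation went on. Against day 4, between 5 and 9 of them were called higher on each day of either arm and none passed the test downwards. CTRL at day 6 had 7 of 9 tested genes higher, where 11.0% of all genes tested were called higher. Day 8 had 8 of 10 (18.1%), day 10 had 6 (23.1%), day 12 also 6 (24.4%) and day 14 had 5 (24.6%). IND had 8 of 10 higher by day 6 (13.1%) and 9 by day 8 (18.7%), then 7 on day 10 (11.9%), 6 on day 12 (20.5%) and 6 on day 14 (25.8%). Of all genes tested, the share called lower was 10.6%, 18.9%, 22.0%, 23.8% and 22.9% in CTRL and 13.5%, 17.0%, 9.79%, 16.6% and 24.8% in IND, in order of day, against 0 of the members tested. ERG, ESAM and EMCN had at most 4 counts in any day 4 library and entered the test only through their later counts. They could therefore be called higher but not lower. PECAM1, with 31, 67 and 2 counts at day 4, also needed a later library to pass the filter on low counts. It was thus hardly open to a call of lower. Every adjusted p comes from the quasi-likelihood test of edgeR, corrected by Benjamini-Hochberg over all genes tested and called under 0.05, unless DESeq2 is named. The median log2 fold change of the genes was largest at day 8, at 2.34 in CTRL and 3.21 in IND, where the medians of all genes were -0.01 and 0.02. By day 14 it was 0.97 in CTRL and 1.92 in IND. ESAM and EMCN, near 0 at day 4, lay above the median wherever tested, even at the low end of their counting intervals. Counting error in their ratios therefore cannot move the median, which says nothing of the spread between wells. The CTRL and IND series share the same 3 day 4 libraries.

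The second question was whether induction changed the genes at a given day. A total of 6 of the 10 were higher in IND at day 8, namely PECAM1, TEK, TIE1, ERG, ESAM and EGFL7, and FLT1 was lower, while KDR, SOX17 and EMCN did not pass the test. Of all genes tested at day 8, 7.49% were called higher and 6.67% lower. At day 6 the only call was KDR, which was lower (2.37% of all genes called lower, 1.29% higher). Day 10 gave 3 genes higher, PECAM1, TIE1 and ESAM (0.856% of all genes), and day 12 gave 3, PECAM1, ERG and ESAM (2.38%), with none called lower on either day (1.18% and 3.04% of all genes). Without replicate 2 of day 10 IND, 7 of the 10 were called higher at day 10 and 1, FLT1, lower. In that fit 3768 of 20650 genes were called in either direction. At day 14 no gene of the 10 passed, where 3.21% of all genes were called higher and 5.22% lower. DESeq2 called 1 of the 10, ESAM, and 1975 of 20985 genes tested. The median log2 fold change of the 10 was 0.21, 0.92, 1.04, 0.75 and 0.31 at day 6, 8, 10, 12 and 14, while that of all genes tested stayed between -0.01 and 0.02. Calls aside, no library of IND overlapped one of CTRL at day 6 for KDR and FLT1, both lower (11.0% of all genes were apart in that direction and 8.06% in the other). At day 8 this held for 9 genes, 8 of them higher in IND (16.3% of all genes) and FLT1 lower (16.9%). Day 10 gave 6 higher (14.7%) and FLT1 lower (16.2%), and day 12 gave 5 higher (14.6%) and both VEGF receptors lower (15.7%). At day 14 the number was 3, PECAM1, ESAM and EMCN, all higher (12.9%), and none was lower (13.9%).

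**Figure D2:**
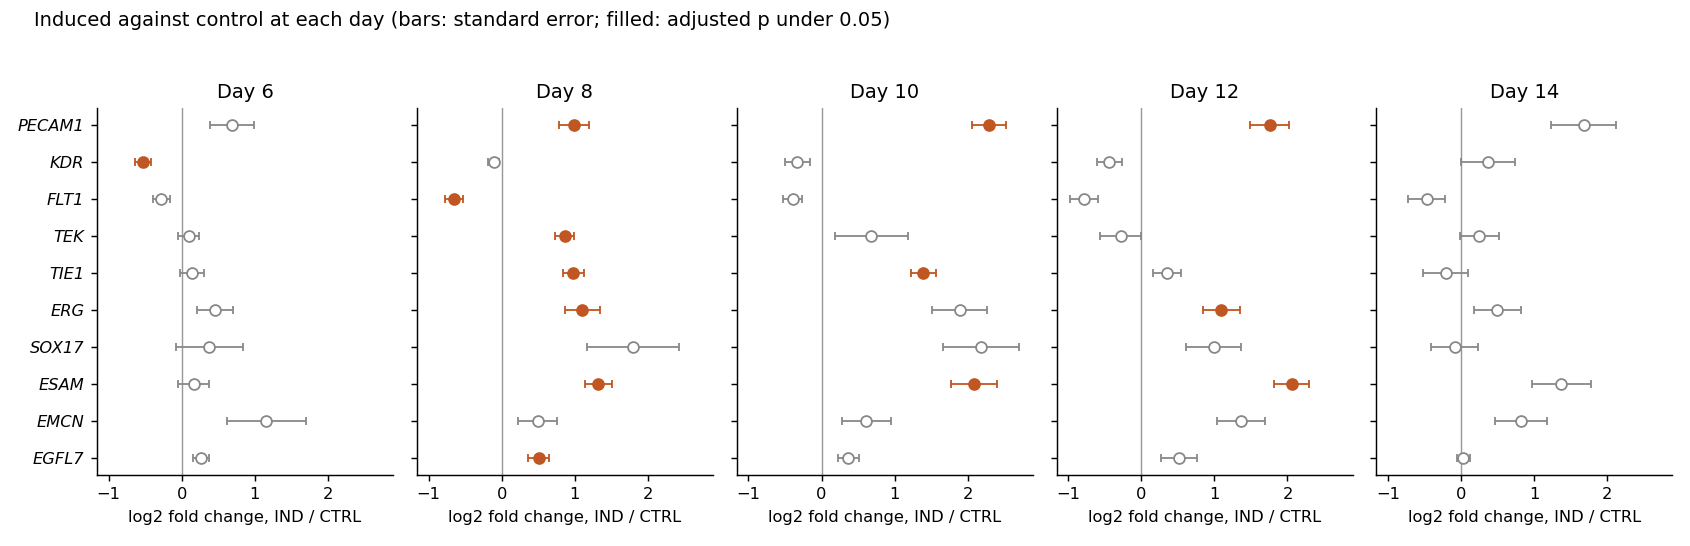
Log2 fold change of IND over CTRL (horizontal axis) for each gene at day 6 to 14, with the standard error as bars; filled orange points have an adjusted p under 0.05. PECAM1, ERG, ESAM, EMCN and EGFL7 lie right of 0 on every day (EGFL7 at 0.028 on day 14), and FLT1 lies left of 0 on every day.

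The sequences just before the start of genes that went opposite ways are shown for KDR and FLT1, which were lower in IND on at least 1 day, and for TIE1 and ERG, which were higher. They are the 250 bases before a RefSeq start on GRCh38.p14, read 5′ to 3′ on the strand of the gene. The windows are chr4:55125596-55125845 on the minus strand for KDR, chr13:28495129-28495378 minus for FLT1, chr1:43300732-43300981 plus for TIE1 and chr21:38498505-38498754 minus for ERG, which has 4 RefSeq windows. Capitals mark matches, on either strand, to the ETS motifs AGGAAG and CGGAAG, the GATA motif AGATAA, the forkhead motif GTAAACA and the SOX motif ACAAAG.
KDR: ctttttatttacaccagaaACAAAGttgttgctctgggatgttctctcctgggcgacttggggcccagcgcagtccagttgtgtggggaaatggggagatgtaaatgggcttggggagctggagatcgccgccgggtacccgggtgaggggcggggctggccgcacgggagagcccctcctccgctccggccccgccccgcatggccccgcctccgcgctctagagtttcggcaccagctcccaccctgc
FLT1: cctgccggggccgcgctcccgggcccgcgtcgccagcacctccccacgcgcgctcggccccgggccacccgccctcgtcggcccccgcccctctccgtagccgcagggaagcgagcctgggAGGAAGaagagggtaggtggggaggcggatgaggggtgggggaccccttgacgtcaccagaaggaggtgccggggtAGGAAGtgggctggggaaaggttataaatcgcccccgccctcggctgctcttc
TIE1: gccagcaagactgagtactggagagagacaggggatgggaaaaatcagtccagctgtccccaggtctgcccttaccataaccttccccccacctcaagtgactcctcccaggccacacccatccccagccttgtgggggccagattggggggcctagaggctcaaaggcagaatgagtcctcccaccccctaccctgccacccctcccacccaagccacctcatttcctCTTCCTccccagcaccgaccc
ERG: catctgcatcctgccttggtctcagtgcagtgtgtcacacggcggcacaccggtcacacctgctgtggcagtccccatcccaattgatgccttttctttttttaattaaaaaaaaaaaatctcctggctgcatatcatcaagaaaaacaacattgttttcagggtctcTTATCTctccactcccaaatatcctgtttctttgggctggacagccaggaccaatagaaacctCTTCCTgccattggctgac
FLT1 held AGGAAG at 2 places and TIE1 at 1, the ERG window held 1 AGGAAG and 1 AGATAA, and KDR held 1 ACAAAG. Of the other ERG windows, 2 held none of these motifs and 1 overlapped the window shown and held the same matches. RefSeq windows were found for 7 of the 10 genes, 12 windows in all, some of which overlap, and for PECAM1, SOX17 and ESAM none was used. AGGAAG or its reverse complement lay in 7 of these 12 windows and in 28.7% of the 35116 windows of the table. AGATAA lay in 3 of 12 against 9.17%, ACAAAG in 3 of 12 against 13.7%, CGGAAG in 0 against 16.5% and GTAAACA in 0 against 2.98%. A match is a run of letters and not a binding site, and no factor binding was measured.

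The VEGF receptors were already expressed at day 4 and were the only members called lower in IND on any day. KDR (ENSG00000128052, chromosome 4, 55078259 to 55125595, minus strand of GRCh38) encodes the main signalling receptor for VEGF-A. At day 4 its libraries had 57.4, 48.3 and 75.8 CPM. At day 6 CTRL had 107, 89.1 and 94.0 CPM and IND 71.9, 60.5 and 66.0 CPM, with every IND well below every CTRL well (log2 fold change -0.53, SE 0.11, adjusted p = 0.00747). The call was lost without replicate 2 of day 6 IND (adjusted p = 0.0858) and in 1 fit over all 33 libraries (adjusted p = 0.272). Against day 4, KDR was higher in CTRL at day 6 (log2 fold change 0.67, adjusted p = 0.0120) and day 8 (0.57, adjusted p = 0.0181), whereas IND passed at day 8 only (0.46, adjusted p = 0.0434). The call at day 6 was lost without replicate 1 of day 4 (0.0647) or of CTRL (0.0685), and that of CTRL at day 8 without replicate 1 of day 4 (0.0738) or replicate 1 or 3 of CTRL (0.0587 and 0.0749, all adjusted p). The IND call at day 8 was lost without replicate 1 or 2 of day 4 or any 1 IND library, with an adjusted p between 0.0878 and 0.147, and in 1 fit over all 33 libraries (0.105). At day 12 the arms were apart again, with 72.7, 55.2 and 49.9 CPM in CTRL and 37.9, 47.2 and 46.1 CPM in IND, and an adjusted p of 0.186. At day 14 the wells of each group were far apart, with 38.1, 49.0 and 83.5 CPM in CTRL and 65.7, 55.2 and 98.5 CPM in IND, and the groups overlapped.

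FLT1 (ENSG00000102755, chromosome 13, 28300344 to 28495145, minus strand) encodes VEGFR1, which binds VEGF tightly and signals weakly. It rose from 10.9, 12.6 and 13.5 CPM at day 4 to 38.3, 46.1 and 40.1 CPM at day 8 CTRL (log2 fold change 1.75, SE 0.13, adjusted p = 2.31e-05). At day 8 IND the wells had 30.3, 26.5 and 21.6 CPM, all below the CTRL wells, so FLT1 was 0.635 of its CTRL level (log2 fold change -0.66, SE 0.13, adjusted p = 0.00625), a call that held with each of the 6 libraries left out. Every IND well was below every CTRL well at day 6, 8, 10 and 12, and 8 of the 9 pairings of wells went that way at day 14. Only day 8 passed the test. At day 12 the CTRL libraries had 21.0, 28.2 and 26.6 CPM and the IND libraries 13.5, 18.4 and 12.0 CPM, and the adjusted p was 0.0504, moving to 0.0495 with RLE size factors and 0.00297 with DESeq2. At day 10 the adjusted p was 0.212, and 0.00403 without replicate 2 of IND. Against day 4, FLT1 was higher in CTRL up to day 12 and in IND up to day 10, the last with an adjusted p of 0.0116 that became 0.0887 without replicate 1 of day 4. In IND at day 14 it was back at 12.5 ± 3.77 CPM (SD, n = 3), against 12.3 ± 1.33 CPM at day 4.

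Both angiopoietin receptors were higher in IND at day 8, opposite to FLT1. TIE1 (ENSG00000066056, chromosome 1, 43300993 to 43323108, plus strand), an orphan receptor that modulates TEK signalling, had 34, 25 and 15 counts in the day 4 libraries, or 1.24, 0.866 and 0.485 CPM. At day 6 it was at 14.1, 11.0 and 10.4 CPM in CTRL and 10.3, 14.5 and 13.8 CPM in IND, overlapping between the arms (adjusted p = 0.808) and 13.7-fold above day 4 in CTRL (adjusted p = 1.31e-05). The arms then separated. Day 8 gave 13.3, 17.5 and 11.5 CPM in CTRL and 27.4, 25.4 and 29.99 CPM in IND (log2 fold change 0.98, SE 0.14, adjusted p = 0.00115). Day 10 gave 9.54, 11.5 and 10.1 CPM in CTRL and 31.5, 27.4 and 22.8 CPM in IND, 2.63-fold higher (log2 fold change 1.40, SE 0.17, adjusted p = 0.0162). No IND well overlapped a CTRL well on these 2 days. By day 12 the wells overlapped again, with 12.4, 8.41 and 9.10 CPM in CTRL and 14.4, 12.2 and 11.6 CPM in IND (adjusted p = 0.339), and at day 14 the log2 fold change was -0.21 (adjusted p = 0.761). The day 8 call held with each library left out. The day 10 call was lost without any 1 library other than IND replicate 2, with an adjusted p from 0.0503 to 0.146 and a log2 fold change from 1.26 to 1.49, and was 2.05e-05 without IND replicate 2.

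TEK (ENSG00000120156, chromosome 9, 27109141 to 27230175, plus strand) encodes TIE2, the receptor that binds angiopoietins. It rose from 2.98, 2.98 and 4.43 CPM at day 4 to 15.9, 13.5 and 12.7 CPM at day 6 CTRL and 14.0, 14.6 and 15.9 CPM at day 6 IND (adjusted p against day 4 8.25e-05 and 0.000159). At day 8 CTRL was at 10.1, 13.04 and 9.36 CPM and IND at 20.2, 19.3 and 19.1 CPM, with IND higher in all 9 pairs (log2 fold change 0.86, SE 0.13, adjusted p = 0.00152). The call held with each library left out and was lost in 1 fit over all 33 libraries (adjusted p = 0.116). At day 10 IND replicate 2 differed from its group, with 14.1, 3.58 and 14.8 CPM in replicates 1, 2 and 3 against 7.91, 6.55 and 5.86 CPM in CTRL. The adjusted p was 0.534 with this library and 0.000108 without it, where the log2 fold change was 1.09 in place of 0.68. On day 12 and 14 the arms overlapped (adjusted p = 0.589 and 0.667). Against day 4, CTRL still passed at day 14 (adjusted p = 0.0116), a call lost without replicate 1 of day 4 (0.0516) or replicate 1 or 3 of CTRL (0.0516 and 0.0507, all adjusted p).

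The junction genes PECAM1 and ESAM were the 2 members called higher in IND at day 8, 10 and 12. PECAM1 (ENSG00000261371, chromosome 17, 64319415 to 64413776, minus strand) encodes CD31, an adhesion molecule of endothelial cells, platelets and leukocytes. At day 4 its wells spread widely, from 2 to 67 counts, or 1.13, 2.32 and 0.0646 CPM. At day 8 it was at 8.41, 10.9 and 7.49 CPM in CTRL and 15.6, 14.2 and 23.1 CPM in IND, 1.99-fold higher (log2 fold change 0.99, SE 0.20, adjusted p = 0.00964). At day 10 CTRL had 3.35, 3.67 and 3.61 CPM, and IND 20.1, 12.3 and 19.7 CPM, 4.92-fold above (log2 fold change 2.30, SE 0.23, adjusted p = 0.00994). The wells remained apart at day 12, with 3.01, 3.01 and 2.83 CPM in CTRL and 13.5, 6.50 and 10.0 CPM in IND (log2 fold change 1.76, SE 0.27, adjusted p = 0.00769). At day 14 CTRL had 2.27, 3.19 and 0.650 CPM and IND 6.61, 7.98 and 5.19 CPM, 3.20-fold higher and higher in 9 of 9 pairs, with an adjusted p of 0.0599. The day 12 call held with each library left out. The day 8 call was lost without replicate 1 or 3 of CTRL (adjusted p = 0.0718 and 0.0536) and in 1 fit over all 33 libraries (adjusted p = 0.263). The day 10 call was lost without any 1 library other than IND replicate 2 (adjusted p from 0.0551 to 0.119) and was 3.22e-08 without IND replicate 2. Against day 4, IND passed on every day and CTRL at day 8 only (adjusted p = 0.00913). The IND call at day 6 was lost without replicate 1 of day 4 or any 1 IND library (adjusted p from 0.0738 to 0.131) and that at day 10 without replicate 1 of day 4 (0.0943). Without a filter on low counts, CTRL at day 8 and IND at day 10 and 14 were no longer called (adjusted p = 0.115, 0.114 and 0.0828), while 1 fit over all 33 libraries also called CTRL at day 6, 10 and 12 (adjusted p = 0.0280, 0.0150 and 0.0385).

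ESAM (ENSG00000149564, chromosome 11, 124752583 to 124762290, minus strand), an immunoglobulin-like adhesion molecule of tight junctions, was at the floor at day 4, with 2, 3 and 0 counts. The ratio of day 6 CTRL to day 4 was 93.9 (95% interval 40.0 to 290.3, 604 against 5 counts), and that of day 8 IND 217 (95% interval 93.0 to 671, 1589 against 5 counts). Such intervals hold counting error of the pooled wells and leave out the spread between wells. The fitted change from day 4 passed the test in both arms on each of the 5 days. At day 6 the arms overlapped, with 6.35, 6.04 and 4.01 CPM in CTRL and 4.90, 6.71 and 6.48 CPM in IND (adjusted p = 0.824). At day 8 CTRL had 4.46, 6.54 and 3.96 CPM and IND 12.0, 11.7 and 13.4 CPM, which is 2.50-fold (log2 fold change 1.32, SE 0.18, adjusted p = 0.000817). Day 10 gave 2.23, 2.85 and 2.21 CPM in CTRL and 12.8, 6.26 and 11.7 CPM in IND, or 4.24-fold (log2 fold change 2.08, SE 0.31, adjusted p = 0.0299), and day 12 gave 1.47, 1.61 and 1.91 and 8.82, 5.94 and 5.93 CPM, or 4.16-fold (log2 fold change 2.06, SE 0.24, adjusted p = 0.00306). IND was above CTRL in all 9 pairs on each of these days and also at day 14, where CTRL had 1.82, 1.54 and 0.487 CPM and IND 3.01, 4.62 and 2.52 CPM with an adjusted p of 0.0664. The calls at day 8 and 12 held with each library left out. The day 10 call was lost without any 1 library other than IND replicate 2 (adjusted p from 0.105 to 0.2302) and was 5.76e-07 without IND replicate 2.

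EMCN (ENSG00000164035, chromosome 4, 100395341 to 100880126, minus strand), typical of capillary and venous endothelium, stayed low, with a group mean of at most 0.709 FPKM. It had 0, 1 and 0 counts at day 4 and 13, 27 and 9 at day 6 CTRL. The ratio to day 4 was 159 (95% interval 28.3 to 6310.4, 226 against 1 counts) at day 8 CTRL and 354 (95% interval 63.2 to 14003, 489 against 1 counts) at day 10 IND. These counting intervals are wide because day 4 held 1 count in all. At day 12 CTRL had 0.941, 2.02 and 1.20 CPM and IND 4.56, 3.07 and 3.00 CPM, with no overlap and an adjusted p of 0.0501. DESeq2 put this at 0.00217 and the fit without a filter on low counts at 0.00137. IND was higher in all 9 pairs at day 8, 12 and 14 and in 7 of 9 at day 10, and no day passed the test. At day 8 the gap was within counting error. The lowest IND well had 2.18 CPM (85 counts) and the highest CTRL well 2.17 CPM (98 counts), with an adjusted p of 0.258. Without IND replicate 2, day 10 had an adjusted p of 0.00531.

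The transcription factors differed from each other in their spread. ERG (ENSG00000157554, chromosome 21, 38380027 to 38661780, minus strand) had 3, 2 and 4 counts at day 4. Its ratio to day 4 was 23.8 (95% counting interval 12.4 to 52.7, 276 against 9 counts) at day 6 CTRL and 65.2 (95% counting interval 34.2 to 143, 858 against 9 counts) at day 8 IND. At day 8 it was at 3.08, 4.11 and 2.14 CPM in CTRL and 6.83, 5.39 and 7.71 CPM in IND, 2.15-fold higher (log2 fold change 1.10, SE 0.24, adjusted p = 0.0106). Day 10 gave 1.18, 1.87 and 0.977 CPM in CTRL and 6.55, 3.41 and 4.94 CPM in IND, with no overlap but an adjusted p of 0.0670, which was 9.05e-05 without IND replicate 2. Day 12 gave 1.32, 1.39 and 0.902 CPM and 2.68, 2.31 and 2.73 CPM (log2 fold change 1.10, SE 0.25, adjusted p = 0.0416). ERG was higher in IND in all 9 pairs on these 3 days. The day 8 call was lost without replicate 1 of CTRL (adjusted p = 0.0661), and the day 12 call without any 1 library other than IND replicate 1 (adjusted p from 0.0761 to 0.171).

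SOX17 (ENSG00000164736, chromosome 8, 54457935 to 54460888, plus strand) varied widely between wells of a group. At day 8 the libraries had 14.0, 39.1 and 13.8 CPM in CTRL and 107, 83.2 and 40.1 CPM in IND, and at day 10 12.2, 11.8 and 29.96 CPM in CTRL and 46.3, 128 and 70.6 CPM in IND. Each IND well was above each CTRL well at day 8, 10 and 12, with log2 fold changes of 1.80, 2.19 and 0.99 (SE 0.63, 0.52 and 0.38), and none passed the test (adjusted p = 0.149, 0.106 and 0.189). Day 8 and 10 passed in 1 edgeR fit over all 33 libraries (adjusted p = 0.0318 and 0.00592) and by DESeq2 (0.0438 and 0.000241), and day 8 also without replicate 2 of CTRL (0.0300). The well with the most SOX17 at day 10 was IND replicate 2, and without it the adjusted p was 0.182. By day 14 the arms overlapped at 13.5 ± 1.42 CPM in CTRL and 12.6 ± 6.36 CPM in IND (SD, n = 3). Against day 4, SOX17 was higher in IND from day 6 to 12 and in CTRL at day 6 only (log2 fold change 1.15, adjusted p = 0.00466, and 0.112 in 1 fit over all 33 libraries). The IND call at day 6 (adjusted p = 0.00723) was lost without replicate 3 of day 4 (0.0876).

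EGFL7 (ENSG00000172889, chromosome 9, 136658856 to 136672678, plus strand) had the highest mean FPKM over all libraries and the smallest ratio of highest to lowest group mean, although SOX17 was above it at day 8 and 10 IND. It had 49.8, 35.8 and 63.6 CPM at day 4, and no group passed the test against day 4. A single fit over all 33 libraries called IND higher at day 8, 10 and 12 (adjusted p = 0.0375, 0.0205 and 0.00764). At day 8 CTRL had 43.2, 57.3 and 50.7 CPM and IND 59.7, 68.0 and 85.4 CPM, 1.42-fold and without overlap (log2 fold change 0.51, SE 0.14, adjusted p = 0.0434). This call was lost without replicate 1 or 3 of CTRL or replicate 2 or 3 of IND, with an adjusted p between 0.0517 and 0.166, and in 1 fit over all 33 libraries (0.136). Replicate 1 of day 12 IND stood out at 113 CPM, with the other wells at 59.3 and 59.4 CPM, and the adjusted p of that day was 0.290.

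The third question was whether the effect of induction changed with the day, tested by the interaction of day and induction over the 30 libraries after day 4. TIE1 (adjusted p = 0.0185) and ESAM (adjusted p = 0.0396) passed, 2 of 10, where 2.38% of all genes tested did. The log2 fold changes of IND over CTRL at day 6, 8, 10, 12 and 14 were 0.14, 0.98, 1.40, 0.35 and -0.21 for TIE1. For ESAM they were 0.16, 1.32, 2.08, 2.06 and 1.37. The difference for TIE1 was thus largest at day 8 and 10, and that for ESAM at day 10 and 12. Among the remaining genes the adjusted p was between 0.241 (PECAM1) and 0.784 (EMCN). Without replicate 2 of day 10 IND, TEK also passed (0.0393), with TIE1 at 0.0195 and ESAM at 0.00458, where 1016 of 23216 genes passed. Neither TIE1 nor ESAM passed when replicate 1, 2 or 3 was left out of all groups at once, with an adjusted p of 0.616, 0.0607 and 0.0777 for TIE1 and 0.699, 0.0645 and 0.133 for ESAM.

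The genes most like each member were sought among 14666 protein-coding genes by Pearson's r over the 11 group means of log2(CPM + 1), which share their libraries and are given as a description. ESAM was closest to APLN (0.996), the ligand of the apelin receptor, CD34 (0.99), a sialomucin of vascular and blood progenitors, and PLVAP (0.98), which forms the diaphragms of endothelial fenestrae. PECAM1 was closest to GIMAP4 (0.98), MYCT1 (0.98) and ADGRF5 (0.97). SOX17 was closest to CD163 (0.98), HLA-DPB1 (0.97) and TMEM125 (0.96). No gene was among the nearest 3 of more than 1 member. SOX17 itself had r = 0.83 with ESAM and 0.77 with PECAM1. TIE1 was nearest to MAGEL2 (0.97), CORIN and C1RL, and TEK to ZNF521 (0.95), KLHL26 and ZSCAN5A. KDR was nearest to MTR (0.95), TMEM140 and ATAD2, FLT1 to IQGAP3 (0.96), OPN3 and FOXF2, and EGFL7 to DMAP1 (0.96), REEP6 and RASEF. Of these 24 genes, 13 stayed among the nearest 3 without replicate 2 of day 10 IND. They were GIMAP4, MYCT1, MTR, ATAD2, IQGAP3, OPN3, ZNF521, CORIN, CD163, CD34, PLVAP, DMAP1 and RASEF. APLN and MAGEL2, the nearest to ESAM and TIE1 with that library, were not among them. ERG and EMCN did not reach 1 FPKM in any group and were not searched. Among the members themselves, r over group means ran from -0.44 (KDR with EGFL7) to 0.96 (ERG with ESAM) over all 45 pairs.

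Other endothelial genes were taken from lists that did not include the 10. Among 25 further surface and junction genes, 10 were higher in IND at day 8 and 1 lower, of 22 tested, with a median log2 fold change of 0.95 against 0.00 for all genes tested. The shares of all genes to read each list against were 7.49% higher and 6.67% lower at day 8, 1.29% and 2.37% at day 6, 0.856% and 1.18% at day 10, 2.38% and 3.04% at day 12, and 3.21% and 5.22% at day 14. CDH5 rose (IND 34.0 ± 3.58 against 17.3 ± 4.05 CPM, adjusted p = 0.00229), as did MMRN2 (IND 21.6 ± 2.51 against 11.6 ± 2.11 CPM, adjusted p = 0.00171), a matrix protein of vessels, whereas S1PR1, the sphingosine phosphate receptor of endothelium, fell (IND 18.0 ± 1.54 against 26.8 ± 2.60 CPM, adjusted p = 0.00470). After 0 higher and 1 lower of 22 tested at day 6, day 10 gave 7 higher and 0 lower of 22 tested, day 12 8 higher and 0 lower of 22 tested and day 14 2 higher and 1 lower of 19 tested. Of 16 endothelial transcription factors, 8 were higher and 2 lower at day 8, with a median of 0.54, while day 6 gave 0 higher and 1 lower of 16 tested, day 10 4 higher and 0 lower of 16 tested, day 12 3 higher and 2 lower of 16 tested and day 14 0 higher and 3 lower of 16 tested. The most abundant of those called were ETS2 (IND 84.1 ± 4.19 against 66.3 ± 7.75 CPM, adjusted p = 0.0211), ELK3 (IND 34.6 ± 6.65 against 49.96 ± 1.13 CPM, adjusted p = 0.0132) and NFATC1 (IND 13.6 ± 2.85 against 22.2 ± 1.35 CPM, adjusted p = 0.00677), the last 2 lower. FLI1, LMO2 and SOX18, chosen after their values were seen, were called higher at day 8, 10 and 12. SOX18 was at 1.61, 1.44 and 1.24 CPM in CTRL and 6.45, 5.65 and 4.35 CPM in IND at day 10.

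The ligands and coreceptors of the VEGF and angiopoietin pathways moved both ways. At day 8, 7 of 15 were higher in IND and 3 lower (7.49% and 6.67% of all genes), with a median log2 fold change of 0.70. NRP2, a VEGF coreceptor that favours VEGFC, rose (IND 325 ± 21.5 against 145 ± 10.7 CPM, adjusted p = 7.36e-06). Its relative NRP1, which favours VEGF-A with KDR, fell (IND 93.7 ± 3.99 against 115 ± 2.76 CPM, adjusted p = 0.0170), and so did ANGPT1, the activating ligand of TEK (IND 66.0 ± 19.2 against 133 ± 19.6 CPM, adjusted p = 0.0300). ANGPT1 was called higher, not lower, in IND at day 14 (51.1 ± 2.54 against 33.004 ± 5.01 CPM, adjusted p = 0.00274). Day 6 gave 2 higher and 2 lower of 15 tested, day 10 2 higher and 0 lower of 15 tested, day 12 2 higher and 1 lower of 15 tested and day 14 3 higher and 1 lower of 15 tested.

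Markers of other cells that use some of the 10 genes were read beside them. Definitive endoderm genes, 11 in the list, summed to 286 to 415 CPM in the day 8 CTRL libraries and 471 to 709 CPM in IND, and to 257 to 329 and 445 to 668 CPM at day 10. Their median log2 fold change was 1.54 at day 8 and 1.64 at day 10, with 1 of 8 tested called higher at day 8, where 7.49% of all genes were (CXCR4, IND 23.1 ± 3.72 against 10.4 ± 1.61 CPM, adjusted p = 0.000457) and 0 of 8 at day 10. At day 12, FOXA2 and AFP, named after their values were seen, were called higher. FOXA2 was at 55.9 CPM in IND and 13.4 CPM in CTRL on average. FOXA2 is a pioneer factor of endoderm. Over the 33 libraries the deviations from the group mean of log2(CPM + 1) of SOX17 had r = 0.83 with those of FOXA2 and 0.23 with those of CDH5. Without replicate 2 of day 10 IND they were 0.82 and 0.43. For ESAM the values were 0.15 and 0.89, for EMCN 0.26 and 0.77, and for PECAM1 0.20 and 0.69. FLT1 had 0.57 with FOXA2 and 0.08 with CDH5, and KDR -0.55 and -0.38. Without that library, ESAM had 0.29 and 0.87, EMCN 0.39 and 0.73, PECAM1 0.27 and 0.69, FLT1 0.57 and 0.14 and KDR -0.52 and -0.58. In replicate 2 of day 10 IND, FOXA2 was at 108 CPM and CDH5 at 13.3 CPM, the highest FOXA2 and the lowest CDH5 of that group. These r are descriptions over wells that share a group, and the part of endoderm-like cells in the SOX17 values was not tested.

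**Figure D3:**
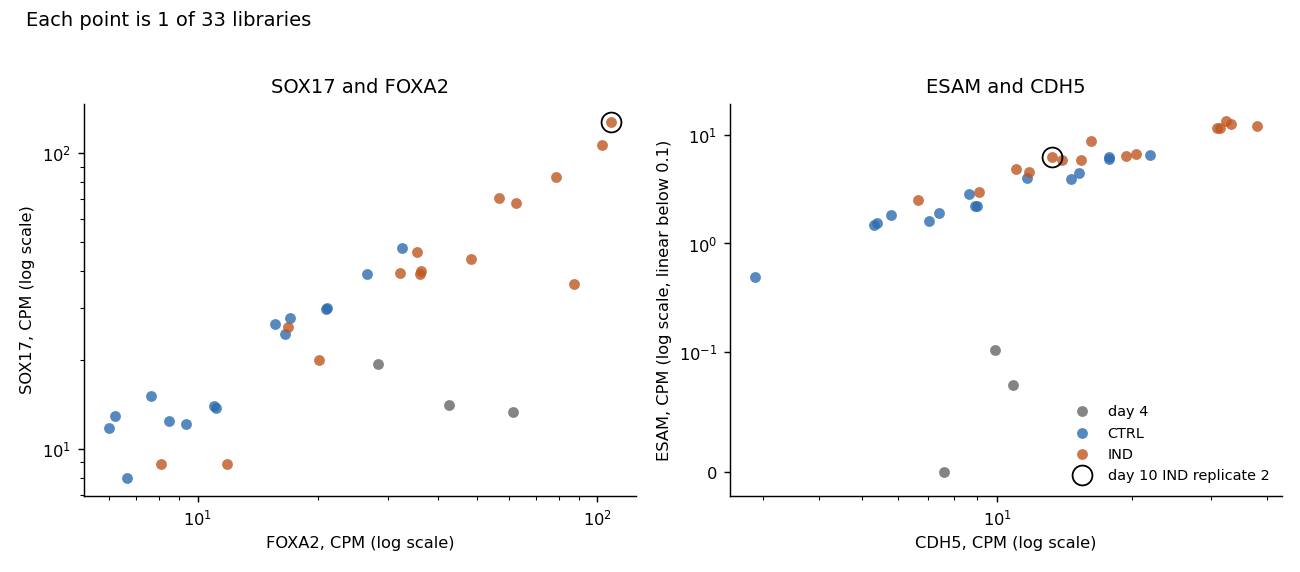
SOX17 against FOXA2 (left, log axes) and ESAM against CDH5 (right, log axes, vertical axis linear below 0.1), in CPM; each point is 1 of 33 libraries, grey for day 4, blue for CTRL and orange for IND, with replicate 2 of day 10 IND circled. After day 4 SOX17 climbs with FOXA2 and ESAM with CDH5, and the 3 day 4 wells lie low on ESAM, from 0 to 0.104 CPM.

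The other lists were checked the same way at day 8, where 7.49% of all genes were called higher and 6.67% lower. Blood and megakaryocyte genes summed to 13.3 to 15.2 CPM in day 8 CTRL and 19.8 to 20.7 CPM in IND, most of it ITGA2B (IND 14.9 ± 1.65 against 10.2 ± 0.976 CPM, adjusted p = 0.0134), and 2 higher and 0 lower of 4 tested were called, the other being RUNX1 (IND 2.28 ± 0.567 against 0.707 ± 0.167 CPM, adjusted p = 0.00364). GATA1, the erythroid and megakaryocyte factor, had at most 0.181 CPM in any library and PTPRC (CD45), the marker of leukocytes, at most 1.86 CPM. The highest PTPRC was in replicate 2 of day 10 IND, at 0.204 FPKM, where PECAM1 had 1.60 FPKM. Of 8 primordial germ cell genes, 1 higher and 1 lower of 5 tested were called at day 8, TFAP2C higher (IND 44.7 ± 5.48 against 26.9 ± 3.64 CPM, adjusted p = 0.00162) and TFAP2A lower, and NANOS3, a gene of germ cells, had at most 0.618 CPM. Mural cell genes, in which RGS5 has 2 gene identifiers, gave 2 higher and 3 lower of 11 tested at day 8, with TBX18 at IND 11.1 ± 1.45 against 68.5 ± 8.997 CPM, adjusted p = 7.12e-07, PDGFRB lower and ACTA2 higher. Mesothelial genes gave 0 higher and 5 lower of 8 tested, among them WT1 (IND 16.0 ± 6.00 against 81.0 ± 10.4 CPM, adjusted p = 0.00692), BNC1 and LRRN4. Early and lateral plate mesoderm genes gave 1 higher and 2 lower of 11 tested, with PDGFRA and HAND1 lower and ISL1 higher. Their medians were 0.27 for blood, 0.94 for germ cell, -0.35 for mural, -1.07 for mesothelial and -0.16 for mesoderm genes. What part a change in other cells had in the endothelial values was not tested.

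**Figure D4:**
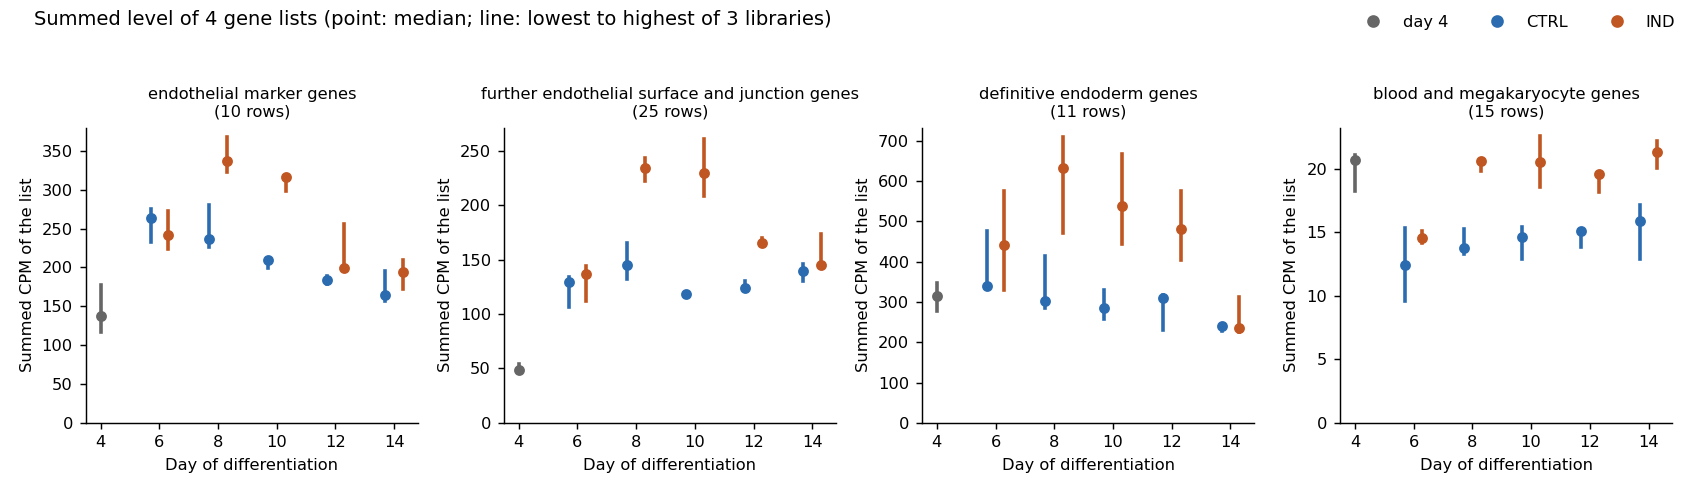
Summed CPM (linear axes from 0) of 4 lists against day of differentiation, with the median of 3 libraries as a point and the lowest to highest as a line, grey for day 4, blue for CTRL and orange for IND. The 10 endothelial marker genes summed to 226 to 281 CPM in day 8 CTRL and 323 to 367 CPM in day 8 IND, and blood genes stayed at 22.6 CPM or less in every library.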

How the data were processed

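Bulk poly(A) RNA-seq of 33 libraries (11 groups of 3 wells) was analysed. Per the labels and the study's methods, the authors trimmed reads with fastp 0.23.2, aligned them to GRCh38/hg38 with HISAT2 2.0.5 and assigned fragments to genes with featureCounts 1.5.0-p3. The values used were the deposited counts per gene, with no normalisation, and the deposited FPKM, which the authors had scaled to gene length and library total. Library totals ran from 23940837 to 51912815 counts, and counting error is therefore small for all members except those near 0 at day 4.

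Groups followed the sample labels. Each day of IND was compared with CTRL of that day, and each group after day 4 with day 4, on its own 6 libraries (15 comparisons), with edgeR 4.0.16 in R 4.3.3 (TMM normalisation, filterByExpr, robust quasi-likelihood test, Benjamini-Hochberg adjustment over all genes tested, threshold 0.05). A test of 4 interaction terms, day by induction, used the 30 libraries after day 4. CPM used TMM factors over all 33 libraries. Ratios to day 4 for genes near 0 carry 95% counting intervals, which leave out the spread between wells. EMCN did not pass filterByExpr at day 6 CTRL against day 4, and every member was tested in each other comparison. Replicates differed by more than sampling noise, with a chi-square of 7.82 to 246 per gene.

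Members were the 10 named genes. The members and the 9 other gene lists were chosen with earlier results of these data known. Of the other genes, those named are the 3 nearest each member that reached 1 FPKM in a group, and up to 3 called genes per list with the highest mean CPM in the comparison described. Any further name was chosen after its values were seen. Promoter windows came from a RefSeq table. Scripts were tested on simulated data drawn from the day 10 libraries and, for the interaction, from the 30 libraries. At the spread of day 10 edgeR kept false calls below the threshold rate, recovered most of the larger changes and none of the smaller ones, so a member not called at day 10 may still have changed. DESeq2 recovered more and made false calls well above its threshold rate, so calls made by DESeq2 alone are given as alternatives and not as results. Settings varied were the tool (DESeq2 1.42.0), the scaling (RLE), the filter on low counts (none), the libraries in the fit (1 fit over all 33), the replicate number as a block, FPKM in place of CPM for the order of groups, and each library left out in turn.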

Additional observations from a re-analysis of the deposited data

Results flagged for a closer look

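For TIE1 and ESAM the difference between IND and CTRL changed with the day, by the test of the interaction of day and induction (edgeR quasi-likelihood, adjusted p = 0.0185 for TIE1 and 0.0396 for ESAM). TIE1 was 2.63-fold higher in IND at day 10, whereas its log2 fold change was -0.21 at day 14 with IND above CTRL in 3 of 9 pairs of libraries. ESAM had a log2 fold change of 0.16 at day 6 and 2.08 at day 10, with IND above CTRL in 7 and 9 of 9 pairs. Neither passed when any of the 3 replicate numbers was left out of all groups.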

How the results depend on the processing

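The counts of members called, each out of the same 10, moved by over 1.5 times under some alternatives, and the cause was not tested. For IND against CTRL, the fit over all 33 libraries called 0 members at day 6 in place of 1. At day 10, DESeq2 and the fit over all 33 libraries called 5 and the replicate block 0, in place of 3. At day 12, DESeq2, no filter on low counts and the fit over all 33 libraries called 5 each in place of 3. At day 14 they called 1, 3 and 1, and the replicate block 2, in place of 0. Without a filter the interaction gave 6 members in place of 2, and 2360 of 42767 genes in place of 533 of 22442. RLE size factors added FLT1 at day 12 and changed no other count. Leaving out 1 library at a time gave 0 to 2, 4 to 8, 0 to 8, 2 to 3 and 0 to 2 members for IND against CTRL at day 6, 8, 10, 12 and 14. It gave 6 to 8, 7 to 8, 6 to 9, 6 to 7 and 4 to 6 for CTRL against day 4 and 7 to 9, 8 to 10, 5 to 8, 6 to 7 and 6 to 7 for IND against day 4. Over all genes, the CTRL fits called 2312 to 5673, 4506 to 8722, 6247 to 10479, 7129 to 10805 and 6750 to 9865. The IND fits called 2626 to 6660, 4478 to 8235, 1654 to 6895, 5176 to 7039 and 7828 to 10722. The interaction gave 3 members without day 10 IND replicate 2, where 1016 of 23216 genes passed. It gave 0 members when replicate number 1, 2 or 3 was left out of all groups at once, where 43, 253 and 120 genes passed. The 8 at day 10 came without IND replicate 2. Of the 24 genes most like a member, 13 remained without that library. The group with the highest mean stayed the same for 10 of 10 members with FPKM in place of CPM and for 7 without that library.

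The count over all genes at an adjusted p under 0.05 moved too. For IND against CTRL it was 700 at day 6 (1209 without a filter, 464 over 33 libraries, 348 to 915 leaving out 1 library), 2752 at day 8 (1599 over 33 libraries, 1321 to 4732 leaving out 1), 404 at day 10 (1787 by DESeq2, 3325 over 33 libraries, 15 with the block, 11 to 3768 leaving out 1), 1080 at day 12 (1956 by DESeq2, 1878 without a filter, 417 to 1979 leaving out 1) and 1606 at day 14 (2448 without a filter, 861 over 33 libraries, 905 to 1987 leaving out 1). For IND at day 10 against day 4 it was 4001 (10223 over 33 libraries, 1566 with the block, 1654 to 6895 leaving out 1). Replicate numbers name wells. The numbers did not pair the samples: correlations of same-numbered deviations ran from -0.37 to 0.40, no comparison of 15 had all pairs above 0.1, and 14 of 45 pairs correlated best with their own number. With the replicate block ERG was no longer called at day 12 for IND against CTRL (adjusted p = 0.0515) while FLT1 and EMCN were, and against day 4 PECAM1 in IND was not called at day 6, 10 and 12 (0.0577, 0.0700 and 0.0869) nor FLT1 at day 10 (0.0699). DESeq2 did not call PECAM1 in IND at day 6 and 14 against day 4 (0.133 and 0.0562). 

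Log2 fold changes changed sign for 15 results, none past the threshold in any fit (lowest adjusted p = 0.209). KDR in CTRL at day 12 against day 4 became 0.036 without a filter, and FLT1 in IND at day 14 against day 4 became -0.022 with the replicate block. The others changed sign on leaving out 1 library. For SOX17 it ran from -0.078 to 0.68 (IND against CTRL at day 6), -0.17 to 0.77 (CTRL at day 8 against day 4), -0.36 to 0.45 (CTRL at day 10 against day 4) and from -0.59 to 0.11 (IND against CTRL at day 14). For ESAM it ran from -0.024 to 0.29 (IND against CTRL at day 6). For EGFL7 it ran from -0.061 to 0.34 (CTRL at day 6 against day 4), -0.16 to 0.25 (CTRL at day 8 against day 4), -0.045 to 0.37 (CTRL at day 12 against day 4) and from -0.039 to 0.073 (IND against CTRL at day 14). For KDR it ran from -0.22 to 0.092 (IND at day 10 against day 4), -0.20 to 0.19 (CTRL at day 12 against day 4) and from -0.46 to 0.15 (CTRL at day 14 against day 4). For TEK it ran from -0.0052 to 0.41 (IND against CTRL at day 14). For TIE1 it ran from -0.50 to 0.15 (IND against CTRL at day 14). For FLT1 it ran from -0.25 to 0.17 (IND at day 14 against day 4). Depth limits mainly the genes near 0 at day 4, ESAM, EMCN and ERG, whose ratios carry wide intervals. With 3 wells of 1 differentiation, the spread between differentiations is unknown.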

Other observations

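Without induction, other endothelial genes also changed between day 4 and day 6. Genes near 0 at day 4 entered this test through their day 6 counts, so they could be called higher but hardly lower. FLI1, for example, had 12, 14 and 0 counts at day 4. In CTRL at day 6 against day 4, 11 of 16 tested endothelial transcription factors were higher and none lower, where 11.0% of all genes were called higher and 10.6% lower, with a median log2 fold change of 1.39 against 0.00 for all genes. The most abundant of those called were ETS1 (40.9 ± 4.42 against 19.7 ± 0.672 CPM, SD, n = 3), ELK3 (30.8 ± 2.57 against 19.7 ± 4.03 CPM) and MEF2C (6.95 ± 0.237 against 1.31 ± 0.214 CPM). Of the further surface and junction genes, 13 of 19 tested were higher and none lower, with a median of 1.80, led by S1PR1 (20.4 ± 0.690 against 5.87 ± 0.840 CPM), CDH5 (15.7 ± 3.52 against 9.47 ± 1.66 CPM) and MMRN1 (7.49 ± 1.72 against 1.41 ± 0.0490 CPM), a protein of platelets and endothelium. Of the VEGF and angiopoietin ligands and coreceptors, 8 of 15 tested were higher and 2 lower. ANGPT1 rose (165 ± 14.6 against 69.5 ± 4.88 CPM), while NRP1 (147 ± 18.6 against 218 ± 9.28 CPM) and APLNR, the apelin receptor (68.2 ± 13.4 against 152 ± 8.19 CPM), fell. Mesothelial genes were higher for 5 of 8 tested and early and lateral plate mesoderm genes lower for 5 of 12. In the interaction of day and induction, 3 of the ligands and coreceptors, 4 of the surface and junction genes and 0 of the transcription factors passed, of 15, 23 and 16 tested, where 2.38% of all genes did.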
